A study of Rattus norvegicus with 6 samples.

Results

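Genes of cytotoxic lymphocytes and T cells were followed in cell fractions of the rat renal inner medulla. They were Prf1, Gzma, Gzmb, Gzmk, Gzmm, Nkg7, Klrd1, Cd3e, Cd8a and Cd2. Every probe set whose only gene symbol in the platform annotation was one of these was taken, which gave 14 probe sets for all 10 genes, out of 31042 probe sets tested and 14217 genes with a probe set of 1 symbol. All 14 were kept, with no filter on low values. The study compared 3 arrays of the collecting duct-enriched fraction (IMCD, for inner medullary collecting duct) with 3 arrays of the cells left in the supernatant of that fraction (nonIMCD). Per the labels, both fractions came from male Sprague-Dawley rats that had received furosemide, a loop diuretic, intraperitoneally (1 mg, 30 min before they were killed), so no array is of untreated tissue. The tissue was digested with collagenase B and hyaluronidase for 75 min at 37 °C. The rats were 6 weeks old for IMCD replicate 1 and 10 weeks old for the other arrays. The sources used here state 7 rats in all but not how many were pooled on an array. The fractions were separated by centrifugation, without a sort, so each can hold every cell type of the digest. Of 9 collecting duct genes, 7 were higher in IMCD and 0 lower, against 10% of all genes called higher and 15.7% called lower. Elf5, Scnn1g, Avpr2 and Hsd11b2 differed most, by 2.56, 2.48, 2.02 and 1.87 on the log2 scale. Another Avpr2 probe set differed less (0.67). Transcripts of the apical water channel Aqp2 were bright in both fractions (47833 to 56084 in IMCD and 37998 to 50634 in nonIMCD). The Aqp2 difference did not pass limma's test (adjusted p = 0.261).

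Cytotoxic T cells and natural killer (NK) cells kill by releasing granules onto a target cell. Perforin opens pores in the target membrane, and granzymes, a family of serine proteases, pass through and cleave proteins inside. T cells recognise targets through the T cell receptor with its CD3 chains and a CD4 or CD8 coreceptor, whereas NK cells lack that receptor and use activating and inhibitory receptors. In rats, CD8 alpha is also carried by NK cells. In the kidney such lymphocytes are resident in, or pass through, the interstitium and vessels beside the tubules.

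All 10 genes had lower signals in IMCD. On all 3 IMCD arrays, 8 of the 14 probe sets were at or under the level of negative controls. By the probe set of highest mean log2 value, this held for 4 of the 10 genes. In limma's test 10 of the 14 probe sets were lower in IMCD and 0 were higher, against 13.4% of all probe sets called lower and 8.58% called higher. With each gene represented by its probe set of highest mean log2 value, 7 of 10 genes were lower, against 15.7% of all genes called lower and 10% called higher. By a looser rule, 9 of 10 had at least 1 lower probe set, with Cd3e and Cd8a added by other probe sets. The share of all genes by the looser rule was not counted, and 15.7% does not apply to it. Every IMCD array lay under every nonIMCD array for 13 of the 14 probe sets and above for 0, against 24.9% and 17.3% of all probe sets. The median log2 difference, IMCD minus nonIMCD, was -3.26 over the 14 probe sets and -0.10 over all probe sets. The highest intensity of the negative controls, the probe sets for a bacterial tryptophan gene, was 78.4 over the 6 arrays. Of the 42 IMCD values of these genes 33 were at or under it, against 2 of the nonIMCD values. The share of all values at or under it was not counted. Over the 6 arrays, 20869 of 31042 probe sets had a mean log2 value of at least 7, against 6 of the 14. Where all 3 IMCD values of a probe set were at or under the negative control level, the fold is given as "at least". It sets the nonIMCD mean on the log2 scale against 78.4. With every value under that level raised to it, the median log2 difference over the 14 probe sets was -2.04. In such bulk samples fewer cells of a type and less RNA per cell cannot be told apart.

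**Figure D1:**
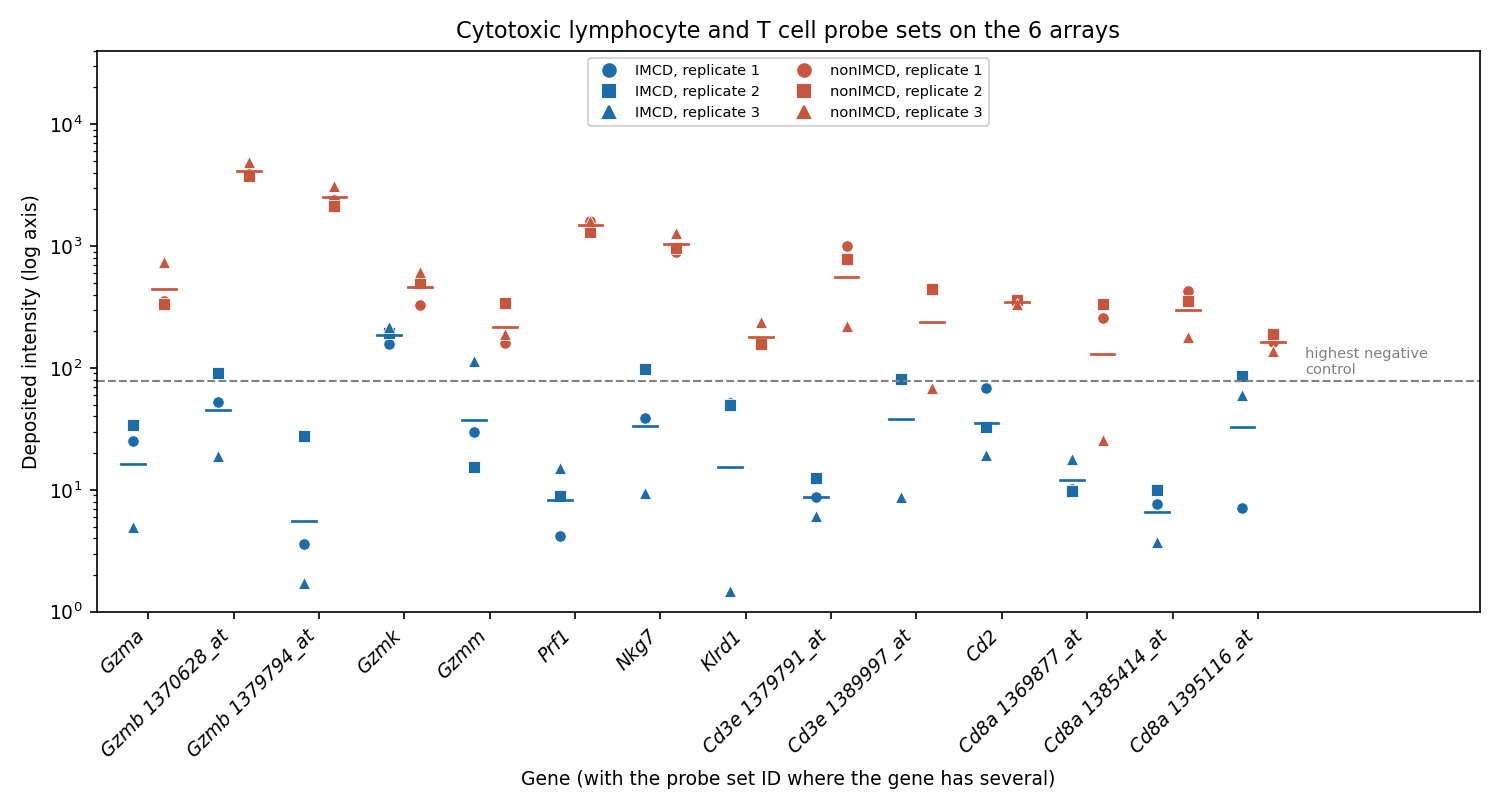
Deposited intensity (log axis) of each of the 14 probe sets on the IMCD arrays (blue) and the nonIMCD arrays (red), with symbols for the replicate number, bars for the mean of log values and a dashed line at the highest negative control (78.4). Most blue points lie under the line (33 of 42), and the 2 red points under it are nonIMCD replicate 3 for Cd3e and Cd8a.

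Perforin (Prf1), the pore-forming protein of the granules, had intensities of 4.19, 8.88 and 15.2 on IMCD replicates 1, 2 and 3, against 1605, 1297 and 1600.45 on nonIMCD replicates 1, 2 and 3. It was thus near the bottom of the scale on every IMCD array and far above the negative controls on every nonIMCD array. Its log2 difference was -5.91 ± 0.20 (SE, limma adjusted p = 0.000194), at least 19.1-fold lower in IMCD.

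Granzyme B (Gzmb), which cleaves after aspartate and activates caspases in the target cell, was represented by 2 probe sets. Probe set 1370628_at had 52.0, 91.1 and 19.1 on the IMCD arrays, against 3898, 3728 and 4884 on the nonIMCD arrays. Probe set 1379794_at had 3.62, 27.8 and 1.71 on the IMCD arrays, against 2408, 2147 and 3080 on the nonIMCD arrays. Both showed a wide gap between the fractions and the highest nonIMCD value on replicate 3. Their log2 differences were -6.03 ± 0.41 (SE, limma adjusted p = 0.000605) and -6.67 ± 0.38 (SE, limma adjusted p = 0.000399). For 1379794_at the fold was at least 32.1-fold lower in IMCD. For 1370628_at 2 of 3 IMCD arrays were under the negative control level, and the log2 difference depended on how dim values were treated. It was -6.49 with a pseudocount of 1, -5.20 with a pseudocount of 64 and -5.65 with values under the negative control level raised to it. In rodents Gzmb lies in a cluster of related protease genes, and cross-hybridisation between them was not tested.

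The promoter letters of Gzmb and Prf1 are shown because these genes had the largest differences, and those of Cd3e because it stands for the T cell receptor complex in the results below. RefSeq entries were matched for 9 of the 10 genes (Klrd1 was not matched). Each sequence gives the 250 bases before the gene's start, 5′ to 3′ on the gene's strand. Capitals mark matches, on either strand, to the motifs TGTGGT (RUNX), TGANTCA (AP-1), TGACGT (letters shared with the cAMP response element), CCGGAA (ETS) and GGTGTGA (T-box).
Gzmb (GRCr8, chr15:34462470-34462719, minus strand): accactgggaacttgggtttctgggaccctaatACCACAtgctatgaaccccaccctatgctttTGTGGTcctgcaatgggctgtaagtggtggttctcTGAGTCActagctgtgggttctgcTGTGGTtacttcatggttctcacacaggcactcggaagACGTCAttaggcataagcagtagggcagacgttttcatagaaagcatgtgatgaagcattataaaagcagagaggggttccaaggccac
Prf1 (GRCr8, chr20:29788790-29789039, plus strand): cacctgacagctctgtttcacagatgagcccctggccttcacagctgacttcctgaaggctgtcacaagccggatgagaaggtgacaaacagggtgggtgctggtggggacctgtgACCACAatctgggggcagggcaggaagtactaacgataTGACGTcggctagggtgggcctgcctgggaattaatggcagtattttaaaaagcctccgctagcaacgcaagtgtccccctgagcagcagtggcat
Cd3e (GRCr8, chr8:54211771-54212020, minus strand): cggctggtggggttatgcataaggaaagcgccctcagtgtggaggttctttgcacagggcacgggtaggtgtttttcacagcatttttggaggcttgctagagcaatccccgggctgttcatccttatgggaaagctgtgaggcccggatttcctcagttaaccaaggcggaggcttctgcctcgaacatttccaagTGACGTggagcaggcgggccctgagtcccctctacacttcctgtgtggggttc
No 2 matches overlapped in these windows. The RUNX letters stood in 7 of the 9 windows, 3 times in that of Gzmb and once in those of Prf1, Gzma, Gzmk, Gzmm, Nkg7 and Cd2. Of 33469 rat promoter windows of this length, 14.5% held them. The letters TGACGT were found in Gzmb, Prf1 and Cd3e (6.95% of all windows). AP-1 letters were found in Gzmb alone of the 9 (6.34%), ETS letters in Gzmm alone (12.6%), and T-box letters in Gzmk and Gzmm (3.22%). The motifs were chosen with these windows and the expression values known, and a match is a run of letters, not a bound site.

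Granzyme A (Gzma), which cleaves after basic residues, had 25.1, 33.9 and 4.97 on the IMCD arrays, against 356, 337 and 736 on the nonIMCD arrays. It was under the negative control level on all IMCD arrays, and nonIMCD replicate 3 exceeded the mean of the other nonIMCD arrays by 1.05 on the log2 scale. The log2 difference was -3.72 ± 0.44 (SE, limma adjusted p = 0.00322), at least 5.68-fold lower in IMCD.

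Granzyme K (Gzmk), also a protease with preference for basic residues and a chromosome 2 gene like Gzma, had 158, 192 and 217 on the IMCD arrays, against 328, 496 and 612 on the nonIMCD arrays. Among the 14 probe sets it was the only one above the negative control level on all 6 arrays. Its log2 difference was -1.24 ± 0.26 (SE, limma adjusted p = 0.0219), a 2.36-fold lower signal in IMCD. Without IMCD replicate 1, IMCD replicate 2 or nonIMCD replicate 2 the adjusted p was 0.0736, 0.0634 or 0.0717, with differences of -1.12, -1.25 and -1.19.

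Granzyme M (Gzmm), a granzyme known from NK cells that cleaves after methionine or leucine, had 29.8, 15.4 and 115 on the IMCD arrays, against 161, 339 and 189 on the nonIMCD arrays. The fractions did not overlap, but IMCD replicate 3 lay close under the lowest nonIMCD array. The log2 difference was -2.03 ± 0.58 with a 95% interval of -3.46 to -0.61, and it did not pass (limma adjusted p = 0.0563). It passed without IMCD replicate 3 (-2.63, adjusted p = 0.0143), with a pseudocount of 64 (-1.37, adjusted p = 0.0294) and with an intensity trend (adjusted p = 0.0177).

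Nkg7, a membrane protein of cytotoxic granules, had 38.9, 98.3 and 9.48 on the IMCD arrays, against 897, 959.6 and 1290.32 on the nonIMCD arrays. The gap between the fractions was wide, with 2 of 3 IMCD arrays under the negative control level. Its log2 difference was -4.28 ± 0.54 (SE, limma adjusted p = 0.00407). It was -4.90 with a pseudocount of 1, -3.36 with a pseudocount of 64 and -3.62 with values under the negative control level raised to it.

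Klrd1 encodes CD94, the partner chain of the NKG2 receptors of NK cells. It had 51.2, 49.4 and 1.47 on the IMCD arrays, against 155, 157 and 236 on the nonIMCD arrays. All IMCD values were under the negative control level and all nonIMCD values above it, so the log2 difference of -2.20 ± 0.56 (SE, limma adjusted p = 0.0411) stands for at least 2.29-fold. This call was lost under 9 of 13 alternatives that included the probe set. Without IMCD replicate 1 or 2 or nonIMCD replicate 1, 2 or 3 the difference was -2.53, -2.51, -2.30, -2.29 or -2.02, with adjusted p of 0.0571, 0.0576, 0.0951, 0.0968 or 0.109. With each array centred on its median it was -1.91 (adjusted p = 0.0547), and after quantile normalization -1.97 (adjusted p = 0.0695).

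CD3 epsilon (Cd3e), a signalling chain of the T cell receptor complex, was measured by 2 probe sets. Probe set 1379791_at had 8.68, 12.4 and 6.06 on the IMCD arrays, against 993, 789.7 and 221 on the nonIMCD arrays. Probe set 1389997_at had 79.3, 80.5 and 8.76 on the IMCD arrays, against 438, 447 and 68.3 on the nonIMCD arrays. On both, nonIMCD replicate 3 was far under the other nonIMCD arrays, and for 1389997_at it fell among the IMCD values, the only overlap of fractions in the 14 probe sets. The first had a log2 difference of -4.53 ± 0.56 (SE, limma adjusted p = 0.00359), at least 7.11-fold lower in IMCD. The second did not pass, with -2.09 ± 0.87, a 95% interval of -4.23 to 0.04 and limma adjusted p = 0.149. Without nonIMCD replicate 3 the second had -2.91 (adjusted p = 0.0489).

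CD8 alpha (Cd8a), the coreceptor chain for class I molecules, had 3 probe sets. Probe set 1385414_at had 7.61, 10.0 and 3.76 on the IMCD arrays, against 425, 356 and 178 on the nonIMCD arrays. Probe set 1369877_at had 10.1, 9.80 and 17.8 on the IMCD arrays, against 259, 334 and 25.4 on the nonIMCD arrays. Probe set 1395116_at had 7.06, 85.5 and 59.9 on the IMCD arrays, against 162, 189 and 138 on the nonIMCD arrays. On all 3, replicate 3 was the lowest of the nonIMCD arrays. The first was lower in IMCD, with a log2 difference of -3.78 ± 0.33 (SE, limma adjusted p = 0.00129), at least 3.82-fold. The second had -2.48 ± 0.82 (SE, limma adjusted p = 0.0849) and the last -1.66 ± 0.56 (SE, limma adjusted p = 0.0897), with 95% intervals of -4.50 to -0.47 and -3.04 to -0.28. Probe set 1369877_at passed without nonIMCD replicate 3 (-3.45, adjusted p = 0.00258) and 1395116_at without IMCD replicate 1 (-1.02, adjusted p = 0.0452).

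Cd2, an adhesion receptor of T cells and NK cells, had 68.1, 32.6 and 19.3 on the IMCD arrays, against 347, 361 and 332 on the nonIMCD arrays. Its nonIMCD values lay close together, replicate 3 included. The log2 difference was -2.79 ± 0.32 (SE, limma adjusted p = 0.00293), at least 4.42-fold lower in IMCD.

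**Figure D2:**
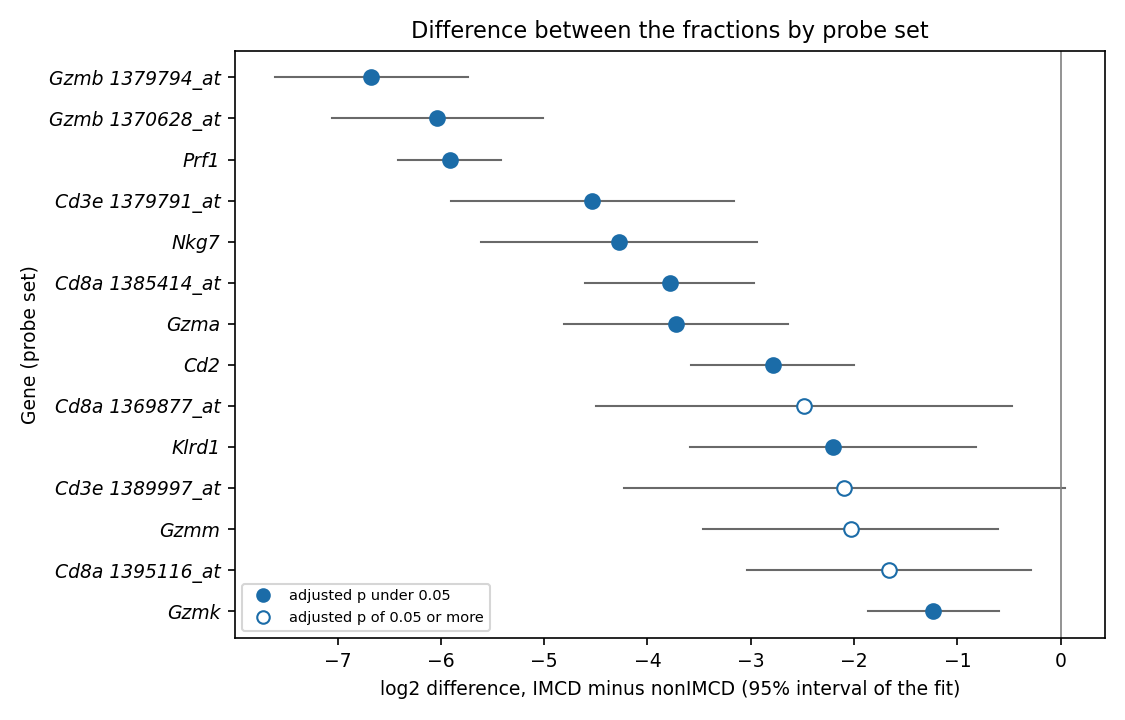
Log2 difference, IMCD minus nonIMCD, of each probe set with its 95% interval from the fit, filled where the adjusted p was under 0.05 and open where it was not. All 14 points lie under 0, between -6.67 for Gzmb 1379794_at and -1.24 for Gzmk, and the interval of Cd3e 1389997_at reaches 0.04.

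The differences of probe sets that were at the negative control level in IMCD have no firm order among themselves. With every value under 78.4 raised to it, the order changed. Nkg7 (-3.62) then lay beyond Cd3e 1379791_at (-2.83), Gzma (-2.51) and Cd2 (-2.14) beyond Cd8a 1385414_at (-1.93), and Gzmk (-1.30) beyond Gzmm (-1.29) and Klrd1 (-1.19). Both Gzmb probe sets and Prf1 (-4.25) had the largest differences in either fit. Differences between genes were not tested.

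The nonIMCD arrays did not move together across these genes. Replicate 3 was the lowest nonIMCD array for all 6 probe sets of Cd3e, Cd8a and Cd2, and for 0 of the 8 probe sets of the other genes, for which it was the highest in 6. Among 21497 probe sets with a mean log2 value of at least 7 in nonIMCD, replicate 3 was the lowest in 34.6% and the highest in 36.8%. The median difference of replicate 3 from the mean of replicates 1 and 2 was -1.50 on the log2 scale for the 6 probe sets and 0.45 for the 8. For single probe sets it was -2.90 (Cd8a 1369877_at), -2.44 and -1.93 (Cd3e 1389997_at and 1379791_at), -0.09 (Cd2) and 0.15 (Prf1). Over all 21497, the central 95% of such differences ran from -0.75 to 0.79. This split of the genes was made after their values were seen, and with 1 array on a side it has no test.

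Cd3g and Cd3d, further CD3 chains, and Cd8b had the same low array. Ptprcap (-1.26), Cd5 (-1.06), Bcl11b (-0.80) and Cd6 (-0.76) also lay under the central 95% on replicate 3. Other T cell genes with a nonIMCD mean log2 value of at least 7 did not. For these lists each gene was taken by its probe set of highest mean log2 value. The genes named here too were picked after their values were seen. Cd3g had 64.8, 22.9 and 13.1 on the IMCD arrays, against 1864, 1085 and 276 on the nonIMCD arrays. Cd3d had 9.39, 36.7 and 11.3 on the IMCD arrays, against 779.7, 735 and 263 on the nonIMCD arrays. Cd8b, the CD8 beta chain, had 6.38, 22.1 and 3.75 on the IMCD arrays, against 444, 370.05 and 20.8 on the nonIMCD arrays. For Cd8b, nonIMCD replicate 3 thus fell within the IMCD range and the difference did not pass (-2.87 ± 1.01, limma adjusted p = 0.0998). CD3 zeta (Cd247), also a chain of the T cell receptor complex, had 492, 576 and 488 on the nonIMCD arrays, a shift of -0.12 within the central 95%. A dimmer Cd247 probe set had 374, 385 and 259 on nonIMCD replicates 1, 2 and 3, with a wider gap under replicates 1 and 2. The coreceptor Cd4 was highest on replicate 3 (0.46). The kinases Lck and Zap70, which act behind the receptor of T cells and are also found in NK cells, had shifts of -0.17 and 0.04. The Zap70 result depended on the probe set. A dimmer Zap70 probe set had 326, 341 and 189 on nonIMCD replicates 1, 2 and 3, so it was lowest on replicate 3. Lck had 284, 300.5 and 316.5 on the IMCD arrays, against 1912, 1986 and 1725 on the nonIMCD arrays. Of 22 other T cell genes 12 were lowest on nonIMCD replicate 3, as were 4 of 16 NK receptor and adaptor genes and 8 of 11 macrophage genes. The median shift was -0.15 for the T cell list, 0.03 for the NK list and -0.22 for the macrophage list. On that array erythroid genes were the highest of the nonIMCD arrays for 3 of 3 and collecting duct genes for 7 of 9, with median shifts of 1.78 and 0.32, and the part of these in the result was not tested.

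**Figure D3:**
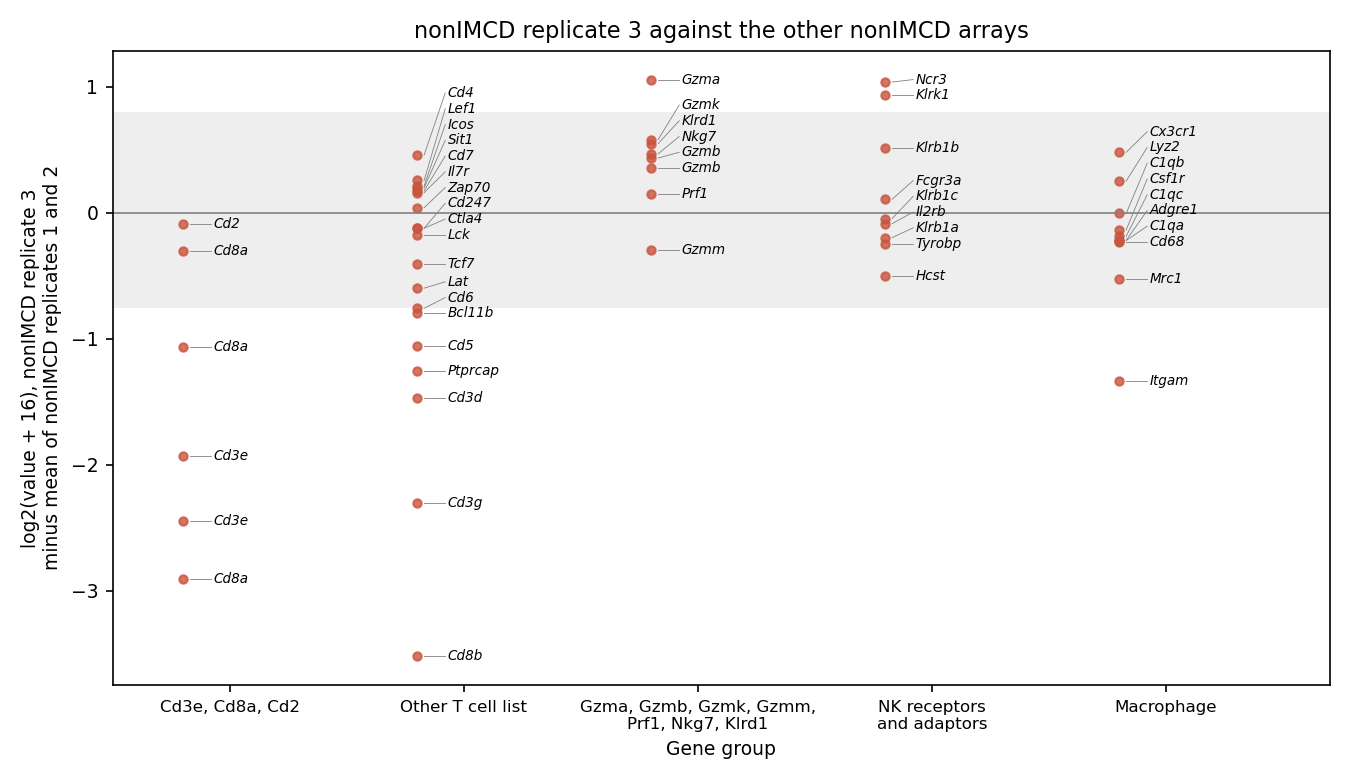
Log2(value + 16) on nonIMCD replicate 3 minus the mean of nonIMCD replicates 1 and 2, for probe sets with a mean of at least 7 in nonIMCD, by gene group; the grey band holds the central 95% of all such probe sets (-0.75 to 0.79). Cd3e, most Cd8a probe sets, Cd3d, Cd3g and Cd8b lie under the band, while the granzymes, Prf1, Nkg7 and Klrd1 lie within it or, for Gzma, above it. Cd5, Cd6, Ptprcap, Bcl11b and the macrophage gene Itgam also lie under the band, and Klrk1 and Ncr3 of the NK list above it.

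Related genes of these lymphocytes were also lower in IMCD, by lists chosen with earlier results of these data known. Of 22 measured T cell genes that are not among the 10, 13 fell, 0 rose and 9 had no call, with a median log2 difference of -1.70. The median over all genes was -0.09, with 15.7% called lower and 10% called higher. Cd3g (-4.23 ± 0.76, SE, limma adjusted p = 0.0135), Cd3d (-4.05 ± 0.50, adjusted p = 0.00375), Zap70 (-3.24 ± 0.48, adjusted p = 0.00707) and the coreceptor Cd4 (-2.97 ± 0.66, adjusted p = 0.0266) were among those that fell. Cd3g and Cd3d were under the negative control level on all IMCD arrays, so they were at least 10.5-fold and at least 6.79-fold lower. Icos, among the 9 without a call, was higher in IMCD without overlap of the fractions (0.54, limma adjusted p = 0.0722). Its other probe sets had 0.63 and 0.50 (limma adjusted p = 0.0727 and 0.149). In rats CD4 is also carried by macrophages. Without nonIMCD replicates 1 or 2, 8 or 7 of the T cell genes were lower.

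The NK receptor and adaptor list had 11 of 16 genes lower, 0 higher and 5 without a call, with a median of -2.13. The shares over all genes were 15.7% lower and 10% higher. Klrc1, among the 11, was under the negative control level on all 6 arrays. With values under that level raised to it, 8 genes of the list were lower. The signalling adaptors Tyrobp (-5.83 ± 0.30, SE, limma adjusted p = 0.000333) and Hcst (-4.70 ± 0.29, adjusted p = 0.00051) and the Fc receptor Fcgr3a (-3.51 ± 0.24, adjusted p = 0.000634) were among them, and Tyrobp and Fcgr3a are macrophage genes as well. Hcst was under the negative control level on all IMCD arrays and so at least 13.4-fold lower. Klrb1c, of the NKR-P1 receptor family of NK cells, had 12.1, 12.3 and 23.4 on the IMCD arrays, against 163, 237 and 190.3 on the nonIMCD arrays (-2.74 ± 0.21, adjusted p = 0.000835), at least 2.48-fold. Without IMCD replicate 1, IMCD replicate 3 or nonIMCD replicate 1 the count of lower genes was 7, 7 or 6.

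Genes of the granule pathway divided. Of 14 measured genes 6 fell, 3 rose and 5 had no call, with a median of -0.20. Beside this, 15.7% of all genes were called lower and 10% higher. Lower members were the granule inhibitor cystatin F (Cst7, -3.39 ± 0.34, SE, limma adjusted p = 0.00197), the lymphocyte protease cathepsin W (Ctsw, -3.29 ± 0.66, adjusted p = 0.0191), the rodent granzyme Gzmf (-2.73 ± 0.69, adjusted p = 0.0392) and serglycin, the granule proteoglycan (Srgn, -2.48 ± 0.15, adjusted p = 0.000447). Ctsw, under the negative control level on all IMCD arrays, was at least 4.17-fold lower. It had 582, 468 and 128 on nonIMCD replicates 1, 2 and 3, so it too was lowest on replicate 3. Higher members were Ctsc, the protease that activates granzymes (0.61 ± 0.14, adjusted p = 0.0302), the vesicle GTPase Rab27a (1.05 ± 0.19, adjusted p = 0.0139) and the SNARE regulator Stxbp2 (0.68 ± 0.12, adjusted p = 0.012). These 3 genes act in granule processing and release but are also expressed by many epithelia. Rab27a had 2616, 2314 and 2393 on the IMCD arrays, against 1239, 919 and 1413 on the nonIMCD arrays. Without nonIMCD replicate 2, 3 granule genes were lower.

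Of 11 effector cytokine and death ligand genes 5 fell, 0 rose and 6 had no call, with a median of -1.57. Among all genes 15.7% were called lower and 10% higher. The chemokines Ccl4, Ccl3, Xcl1 and Ccl5 had differences of -5.48 ± 0.32, -5.28 ± 0.39, -4.67 ± 0.50 and -3.89 ± 0.15 (SE, limma adjusted p = 0.000432, 0.000776, 0.00239 and 0.000204). Ccl3 and Ccl4 are also made by macrophages. Xcl1, a chemokine known from NK cells and CD8 T cells, had 17.4, 19.8 and 101 on the IMCD arrays, against 1237, 1213 and 1496 on the nonIMCD arrays. Interferon gamma (Ifng) was dim, with 49.1, 5.81 and 22.3 in IMCD against 141, 80.2 and 77.5 in nonIMCD, and did not pass (-1.57, adjusted p = 0.0544).

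Of 8 transcription factor genes of lymphocytes 5 fell, 2 rose and 1 had no call, with a median of -1.58. Among all genes 15.7% were called lower and 10% higher. Runx3, which acts in CD8 T cells and NK cells, had 26.6, 53.2 and 24.4 on the IMCD arrays, against 2067, 1770.37 and 1803 on the nonIMCD arrays (-5.26 ± 0.24, SE, limma adjusted p = 0.000256), at least 23.9-fold. Another Runx3 probe set differed less (-1.15, adjusted p = 0.0483). Stat4 (-2.65 ± 0.40, adjusted p = 0.00713) and Eomes (-1.89 ± 0.44, adjusted p = 0.03) were lower too, with all IMCD values of both under the negative control level, and so at least 2.54-fold and at least 1.61-fold. A dimmer Eomes probe set did not pass (-1.60, limma adjusted p = 0.0743). Gata3, a T cell factor that principal cells of the collecting duct also express, was higher (2.15 ± 0.26, adjusted p = 0.00346), as was Prdm1 (1.46). Without IMCD replicate 1 or nonIMCD replicate 2, 3 of these genes were lower.

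**Figure D4:**
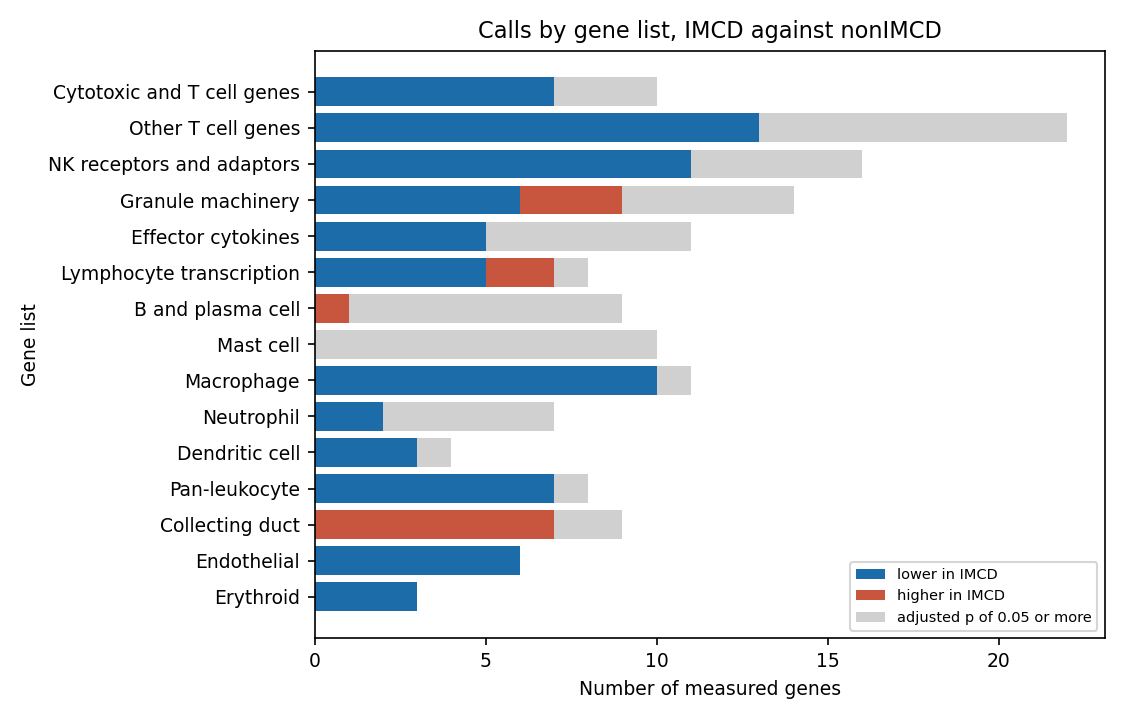
Number of measured genes lower in IMCD (blue), higher in IMCD (red) or with an adjusted p of 0.05 or more (grey) in each gene list. Among all genes 15.7% were called lower and 10% higher. The NK receptor list has 11 of 16 genes lower and the macrophage list 10 of 11, whereas the B and plasma cell list and the mast cell list, with many genes at the negative control level, have 0 lower.

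Markers of other blood cells moved with these genes to different extents, and their part in the result was not tested. The shares over all genes were 15.7% called lower and 10% called higher. Of 11 macrophage genes 10 were lower in IMCD, with summed intensities of 4075 to 5646 in IMCD and 112864 to 119820 in nonIMCD and no gene listed at 0. Of 8 pan-leukocyte genes 7 were lower, with sums of 26760.2 to 27554 in IMCD and 69552 to 71595 in nonIMCD. Most of the IMCD sum was Arhgdib, the gene without a call (22691 to 23476 in IMCD and 18505 to 20993 in nonIMCD). Without it the sums were 3901 to 4235 in IMCD and 48560 to 53090.2 in nonIMCD. Lcp1 made up most of these IMCD sums (3303 to 3365), as Lyz2 did of the macrophage sums in IMCD (3032 to 4453). Of 4 dendritic cell genes 3 were lower (sums of 437 to 614 in IMCD and 5949 to 8030.44 in nonIMCD), or 2 with values under the negative control level raised to it, since Clec9a was under that level on all 6 arrays. Of 7 neutrophil genes 2 were lower (473 to 828 in IMCD and 1335 to 1645 in nonIMCD), or 1 with that floor. Among genes that fell were C1qb (-7.06), Adgre1 (-5.94) and C1qc (-5.87) of macrophages, Cd53 (-6.07), Coro1a (-6.01), Rac2 (-5.69) and Ptprc (-5.45) of leukocytes in general, Irf8 (-3.11) of dendritic cells and Csf3r (-1.84) of neutrophils. With all IMCD values under the negative control level, Mrc1 of macrophages was at least 45.3-fold, Itgax of dendritic cells at least 39.1-fold and S100a8 of neutrophils at least 1.35-fold lower. All 6 endothelial genes were lower, led by Vwf (-4.16), Slc14a1 (-4.01), Cldn5 (-3.54) and Pecam1 (-1.99), with sums of 5903 to 6761 and 38238 to 42314. Another Slc14a1 probe set differed less (-2.30), with 1492, 2170 and 3655 on nonIMCD replicates 1, 2 and 3. The erythroid genes Hbb (-5.01), Alas2 (-4.10) and Ahsp (at least 5.78-fold) were lower, with sums of 747 to 3040.09 and 29645 to 87145.

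Few B lineage and mast cell genes had a call. Of 9 measured B and plasma cell genes 0 fell, 1 rose and 8 had no call, with a median of -0.09 and sums of 1644 to 1985 in IMCD and 1264 to 1337 in nonIMCD, against 15.7% of all genes called lower and 10% called higher. Of the 9, 4 were under the negative control level on all IMCD arrays and 3 on all nonIMCD arrays, and for those 3 no lower signal in IMCD could be measured. The higher gene was Cd79b, a chain of the B cell receptor (1.09 ± 0.14, SE, limma adjusted p = 0.00422). The B cell marker Ms4a1 was under the negative control level on all 3 IMCD arrays and 2 of 3 nonIMCD arrays. For 10 mast cell genes limma called 0, with 0 at an unadjusted p under 0.05, a median of 0.01 and sums of 561 to 886 in IMCD and 512 to 864 in nonIMCD. The largest mast cell difference was that of the tryptase Tpsb2 (1.18, adjusted p = 0.157), and 5 of the 10 were under the negative control level on all nonIMCD arrays. A probe set at that level does not show that the cell type was absent.

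Apart from the 10 genes themselves, those with the profile most like their mean over the 6 arrays were C1qb, Alox5, Zcchc24, Cd53, Cntrl, Golm1, Kidins220 and Tnfsf9, with Pearson r of 0.998 to 0.999; C1qb and Cd53 are also in the lists above. This likeness mostly restates the gap between the fractions, since 2242 of 11087 candidate genes had r above 0.9. Candidates had to have a mean log2 value above 7 in nonIMCD, the fraction in which the 10 genes were higher. Genes with only a provisional symbol were dropped as well. The 11087 candidates are thus a selected set and not a background of all 14217 genes. C1qb is a complement subunit of macrophages, Alox5 the 5-lipoxygenase of leukocytes and Cd53 a tetraspanin of leukocytes. Alox5 had 23.1, 31.9 and 12.7 on the IMCD arrays, against 1229.59, 1417 and 1176 on the nonIMCD arrays.

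RNA quality moved with the fractions as well. The mean log2 ratio of 3′ to 5′ probe sets of the control transcripts Actb, Gapdh and hexokinase averaged 0.69 ± 0.03 in IMCD, against 1.35 ± 0.14 in nonIMCD (SD, n = 3 each), and its part in the differences was not tested. With each array centred on its median, or after quantile normalization, the median of all probe sets moved up by 0.29 or 0.15 on the log2 scale. All 14 differences stayed under 0 in both, and 9 of the 14 probe sets were lower in each.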

How the data were processed

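RNA of 6 preparations was hybridised to Affymetrix Rat 230 2.0 arrays. The authors deposited 1 linear intensity for each probe set on each array, scaled to a common 2% trimmed mean (1000.31 to 1000.37 in the deposited values). For software, genome build and detection calls, the sources used here give nothing. After 57 control probe sets were left out, log2(intensity + 16) was compared between fractions by limma 3.58.1 under R 4.3.3, with lmFit and then eBayes on all 6 arrays and no covariate, two-sided, with Benjamini-Hochberg adjustment over 31042 probe sets and a threshold of 0.05. The pseudocount understates differences of dim signals. Differences are IMCD minus nonIMCD. Gene symbols came from the platform annotation, updated by identifier to RefSeq of GRCr8. Promoter sequences are RefSeq's, GRCr8. P-values measure the spread between these arrays, which may be technical, and the number of arrays limits precision. The fit code was also run on simulated arrays with independent normal noise and known differences. Those arrays held no pairing, RNA quality shift or floor of dim values, so they do not test the calls given here.

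The members and lists were chosen with earlier results of these data known. Named genes were all members, in each list the 4 called genes that differed most (without calls, the 1 that differed most), higher genes of the pathway lists, and the 8 most like profiles. Lck, Cd8b, Cd247, Arhgdib, Ifng, Prdm1, Ms4a1 and Aqp2 were chosen after their values were seen. So were Cd5, Cd6, Ptprcap, Bcl11b, Icos, Klrk1, Ncr3, Klrc1, Itgam, Lcp1 and Lyz2. Alternatives were pseudocounts of 1 and 64, median centring, quantile normalization, leaving out probe sets with a mean log2 value under 7, an intensity trend, a replicate block, each array left out, and, chosen after seeing the data, a floor at the highest negative control.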

Additional observations from a re-analysis of the deposited data

How the results depend on the processing

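None of the 14 differences changed sign under any of the alternatives run. Of the 188 values these gave, 165 stayed on their side of the threshold, 12 lost a call (Klrd1 and Gzmk) and 11 gained one (Gzmm, Cd3e 1389997_at, Cd8a 1369877_at and Cd8a 1395116_at). Of the 14 probe sets, 8 to 11 were lower without 1 array, and 6 with dim probe sets left out, which removed 8 of the 14 from the test. Leaving out dim probe sets also gave 6 lower NK receptor genes and 2 lower transcription factor genes. The floor at the highest negative control gave 3 lower transcription factor genes and 1 lower neutrophil gene. It also gave 10 lower T cell genes, 8 lower NK receptor genes and 4 lower granule genes. With median centring 2652 probe sets were lower and 5389 higher, against 4163 and 2663 as deposited, and higher calls made up 67.0% with median centring, 52.1% after quantile normalization and 39.0% as deposited. Without 1 array, 2647 to 3221 probe sets were lower and 1537 to 2248 higher. The ranges of lower genes without 1 array were 7 to 12 for T cell, 6 to 10 for NK receptor, 3 to 4 for granule, 3 to 5 for transcription factor and 1 to 3 for neutrophil genes. Causes were not tested. All 3 IMCD values of Klrd1 and 2 of 3 of Gzmm were under the negative control level. The part of this in their calls was not tested.

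The design describes fractions as 3 pairs, but the labels do not say which arrays form a pair. Deviations of same-numbered arrays from their group means correlated at r = 0.04, 0.04 and 0.06, so the numbers are treated as names only, although each array correlated best with its own number. With the replicate number as a block 10 of the 14 probe sets and 7 of 10 genes were lower, as without it, but 3 granule genes were lower in place of 6. In that fit Klrd1 lost its call (adjusted p = 0.103) and Cd3e 1389997_at gained one (adjusted p = 0.014), and 2993 probe sets were lower and 1831 higher overall.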
